A study of Mus musculus with 6 samples.

Results

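The cells described here are smooth muscle cells of mouse aortas with more transcripts of Npnt, Itga8, Sost and Susd5 together than of Sncg, Nrip2, Rgs4 and Pln. They were chosen by their own counts of unique molecular identifiers (UMIs, 1 per captured transcript). A cell needed at least 300 genes, under 20% mitochondrial UMIs, at least 5 UMIs of Myh11, Cnn1 and Lmod1 together, and no UMI of Pecam1, Ptprc or Pdgfra. Among such gated smooth muscle cells, A was the sum of Npnt, Itga8, Sost and Susd5 UMIs and B the sum of Sncg, Nrip2, Rgs4 and Pln UMIs, and members had A of at least 2 and A above B. Members numbered 7388 of 59413 filtered and 62838 deposited cells. They were 7388 of 8952 gated cells, while 946 had B above A (B>A cells) and 618 had neither.

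The samples were 3 aortic preparations labelled high-fat diet and 3 labelled control, which the series describes as a normal diet. All 6 came from C57B/6J mice of 18 weeks, carried no named allele, and were digested with 0.2% collagenase for 30 min before droplet capture of 3′ transcript ends. The labels do not say whether a sample is 1 animal or a pool, nor whether samples are separate animals, so a p-value here speaks only to the spread of these 6 preparations, which may be technical. High-fat diet 1, 2 and 3 gave 1609, 1248 and 1367 members, and control 1, 2 and 3 gave 1016, 1177 and 971. Each sample joined cells of 2 gel-bead wells. Well 1 of control 3 gave 57 of the 971 members of its sample and stood apart from the other control wells in some genes, so diet results are also given without it. Control 3 as a whole also stood apart from the other 5 samples in posterior Hox genes, whose levels are given with the Hox list. Members held a median of 6313 UMIs, against 5662 in B>A cells.

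Smooth muscle cells of the arterial media contract and also lay down the elastic lamellae. In a large elastic artery they bind their matrix through integrins, and nephronectin, the product of Npnt, is a matrix ligand of the integrin made of the alpha 8 chain (Itga8) and the beta 1 chain (Itgb1). Sclerostin, the product of Sost, is a secreted inhibitor of Wnt signalling best known from bone. Notch3 signalling is known for its role in the smooth muscle of smaller, muscular arteries.

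The 250 bases before the RefSeq start of the genes summed in A are shown because these genes chose the cells. They are written 5′ to 3′ in the direction of the gene on GRCm38.p6, with every CG in capitals. The windows are chr3:132950292-132950541 (minus strand) for Npnt, chr2:12301945-12302194 (minus strand) for Itga8, chr11:101967016-101967265 (minus strand) for Sost and chr9:114057104-114057353 (plus strand) for Susd5.
Npnt: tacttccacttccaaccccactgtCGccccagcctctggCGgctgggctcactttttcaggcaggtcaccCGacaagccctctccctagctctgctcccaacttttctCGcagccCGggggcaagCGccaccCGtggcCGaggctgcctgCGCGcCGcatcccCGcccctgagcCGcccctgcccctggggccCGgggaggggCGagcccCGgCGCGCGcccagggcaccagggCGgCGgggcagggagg
Itga8: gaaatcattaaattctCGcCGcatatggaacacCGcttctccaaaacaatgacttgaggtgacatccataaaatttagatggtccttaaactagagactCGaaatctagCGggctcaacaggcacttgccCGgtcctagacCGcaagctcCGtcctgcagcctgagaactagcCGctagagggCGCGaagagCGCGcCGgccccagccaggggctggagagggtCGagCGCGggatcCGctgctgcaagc
Sost: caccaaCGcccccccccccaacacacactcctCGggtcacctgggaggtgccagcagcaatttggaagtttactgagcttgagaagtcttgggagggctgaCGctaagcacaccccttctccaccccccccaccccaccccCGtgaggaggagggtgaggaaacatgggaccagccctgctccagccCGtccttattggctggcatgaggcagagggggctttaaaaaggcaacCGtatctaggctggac
Susd5: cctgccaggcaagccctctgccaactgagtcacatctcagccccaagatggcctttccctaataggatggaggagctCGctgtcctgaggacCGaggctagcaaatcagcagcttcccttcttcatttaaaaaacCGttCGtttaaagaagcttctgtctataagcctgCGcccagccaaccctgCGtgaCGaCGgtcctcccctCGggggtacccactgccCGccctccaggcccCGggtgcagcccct
The Npnt window held 21 CG and was 74% G or C, the Itga8 window 18 and 56.4%, the Susd5 window 11 and 59.2%, and the Sost window 6 and 61.2%. The median over 32851 promoters of the same length was 6 CG. RefSeq lists another Npnt start, whose window held 23 CG. The CArG box, the element bound by serum response factor in many contractile genes, was searched on both strands and was in none of these 4 windows and in 1.47% of all promoters. The letters TATAAA were in none of the 4 on either strand and in 12.4% of all promoters, and among genes summed in B they were in the Rgs4 and Pln windows.

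The label was met by its markers, which the rule used. Itga8 was detected in 96.8% of members, Npnt in 86.9%, Sost in 85.5% and Susd5 in 58.4%. In 2551 leukocytes (at least 2 Ptprc UMIs and none of Myh11, Cnn1 or Lmod1), which should lack these genes, the shares were 10.2% for Itga8, 5.96% for Npnt, 9.41% for Sost and 2.23% for Susd5. Those leukocytes held a median of 3732 UMIs. All 4 genes were seen together in 3607 members (48.8%), and 1842 (24.9%) lacked only Susd5. A single gene of the 4 was seen in 234 members (3.17%), most often Itga8 (162 cells). Members held a median A of 16 and a median B of 1, and 71.0% had A of 10 or more. B>A cells had a median A of 2 and a median B of 10. Itga8 was detected in 62.4% of B>A cells, Npnt in 36.0%, Sost in 23.7% and Susd5 in 35.5%. Of the genes of B, Sncg was detected in 35.6% of members, Rgs4 in 36.0%, Pln in 12.9% and Nrip2 in 2.25%. Members also held 50.4% of all Npnt UMIs in filtered cells, 49.3% of Itga8, 48.0% of Sost and 50.2% of Susd5.

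Near the threshold, 326 members had A of exactly 2, with a median of 4753.5 UMIs per cell and 8 UMIs of Myh11, Cnn1 and Lmod1 together. Just outside it, 238 gated cells had A of 1 and B of 0, with 4881.5 and 7 UMIs. The other cells in neither set were 176 with no UMI of the 8 genes and 204 with A equal to B. Across all members the median of the Myh11, Cnn1 and Lmod1 sum was 25 UMIs, against 20 in B>A cells.

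Counts were summed over the members of each sample and given as CPM, the UMI count scaled to a common depth. In such sums, fewer cells of a type and less RNA per cell cannot be told apart. Sost stood at 963, 839 and 971 CPM in members of high-fat diet 1, 2 and 3, and at 579, 1041 and 513 CPM in members of control 1, 2 and 3. Control 1 and 3 were low and control 2 was the highest of the 6, so the diets overlapped. Npnt stood at 605, 400 and 618 CPM on high-fat diet and at 479, 827 and 622 CPM in controls. Itga8, the steadiest of the 4, stood at 1031, 977 and 1305 CPM on high-fat diet and at 985, 1278 and 990 CPM in controls. Susd5 stood at 150, 117 and 230 CPM on high-fat diet and at 107, 209 and 295 CPM in controls. Susd5 and Sost were ordered differently across samples: control 3 was highest for Susd5, while control 1 and 3 were the lowest for Sost. In members, Susd5 was detected in 51.0%, 49.3% and 64.8% of cells on high-fat diet and in 45.5%, 65.2% and 78.4% in controls.

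**Figure D1:**
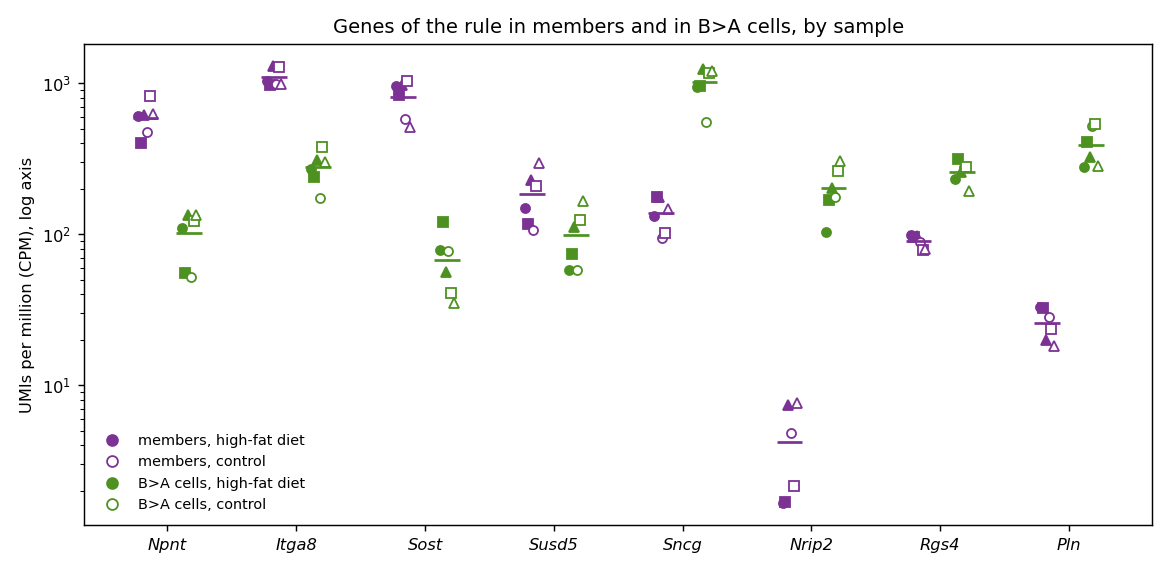
Level of each gene of the rule in the sum of members (left of each pair) and of B>A cells (right), in CPM on a log axis, with 1 point per sample (circle, square and triangle for samples 1, 2 and 3) and a bar at the mean of 6. Sost averaged 817 CPM in members and 68.0 CPM in B>A cells, while Pln averaged 25.9 and 392 CPM, a separation that the rule itself made.

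Whether members were a larger part of the smooth muscle on high-fat diet was asked of the shares. Members made up 86.3%, 82.6% and 80.5% of gated cells in high-fat diet 1, 2 and 3, and 80.6%, 86.0% and 77.6% in control 1, 2 and 3. The means were 83.1% ± 2.94 on high-fat diet and 81.4% ± 4.27 in controls (SD, n = 3 each; exact two-sided permutation p = 0.6). The samples overlapped, and the difference of 1.71 percentage points was below the spread between samples. It was -0.196 points without control 3, -0.939 in cells under 10% mitochondrial UMIs and -0.524 in well 2 alone. Of members and B>A cells together, members made up 89.2% ± 3.18 on high-fat diet and 87.8% ± 4.87 in controls (SD, n = 3 each; exact permutation p = 0.6), and this difference also turned negative in the same settings. Of all filtered cells, members made up 15.5%, 15.7% and 14.2% on high-fat diet and 15.5%, 7.10% and 11.6% in controls (exact permutation p = 0.3). This last share depended on the settings. The diets did not overlap, with members higher on high-fat diet, in cells of at least 1000 genes (means of 16.7% on high-fat diet and 13.01% in controls), with a gate of 10 UMIs (12.96% and 10.1%) or with A of at least 4 and B of at least 2 (13.9% and 10.3%), each with an exact permutation p of 0.1, nor without control 1 (15.1% and 9.37%; exact permutation p = 0.2). A design of 3 samples against 3 cannot give a p below 0.1. The share of all gated cells among filtered cells went the same way. Its means were 18.2% on high-fat diet and 14.2% in controls at the main settings (exact permutation p = 0.4). With the gate of 10 UMIs they were 14.8% and 11.8%, without overlap (exact permutation p = 0.1). At the main settings the 95% Wilson interval of the lowest member share, 7.10% in control 2, ran from 6.72% to 7.51% and covers counting error only.

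**Figure D2:**
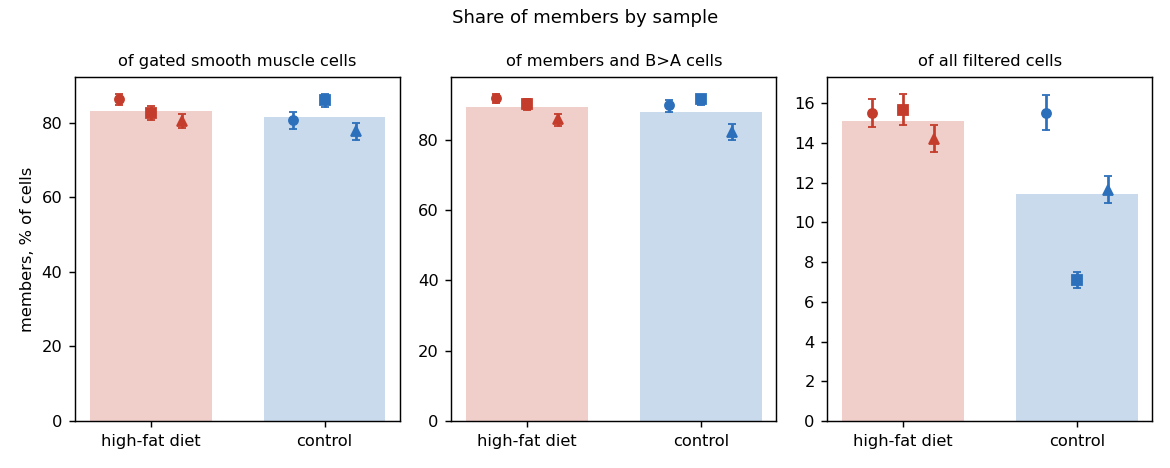
Members as a percentage of gated smooth muscle cells, of members and B>A cells, and of all filtered cells, with 1 point per sample, its 95% Wilson interval, and a bar at the group mean. The diets overlapped in all 3 panels at the settings shown, and control 2 was lowest at 7.10% of filtered cells while highest at 86.0% of gated cells among controls.

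Members and B>A cells were then set side by side within each sample, to show what else goes with the 4 genes. The rule read this contrast, so the values are a description with no test. A difference is the log2 of CPM + 10 in members minus that in B>A cells of the same sample, which understates low genes, and its median over 6 samples is given. Of 10630 genes with at least 5 CPM in either set, 1292 (12.2%) were higher in members in 6 of 6 samples and 1087 (10.2%) were lower. With a median difference of at least 1, these were 119 (1.12%) and 160 (1.51%).

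Mylk4, a gene of the myosin light chain kinase family, led the higher genes with 138, 126 and 161 CPM in members on high-fat diet and 116, 138 and 120 CPM in members of controls. In B>A cells of the same samples it stood at 17.2, 27.0 and 12.3 CPM and at 23.4, 14.7 and 8.24 CPM. No sample's B>A cells came near the members. Ncam1, a neural cell adhesion molecule, averaged 318 ± 32.8 CPM in members and 49.9 ± 13 CPM in B>A cells (SD, n = 6 samples each), a median difference of 2.46. Rbp4, which carries retinol, averaged 263 ± 83.0 CPM and 78.1 ± 42.8 CPM, with differences between 0.60 and 2.5 across samples. Others were Ptprz1, a receptor tyrosine phosphatase (1.94), Fam198b (1.87), Lgr6, an R-spondin receptor (1.80), Dsp, the desmosomal plaque protein desmoplakin (1.79), Gxylt2, a xylosyltransferase (1.74), and Vcan, the proteoglycan versican (1.70). Dsp was uneven between samples, with 18.3 CPM in members of control 3 and 52.1 to 128 CPM in the other 5.

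The lower genes were led by Olfr558, an olfactory-type receptor, with 0.622 to 2.62 CPM in members and a mean of 113 ± 28.2 CPM in B>A cells (SD, n = 6). Higd1b averaged 7.44 ± 4.02 CPM in members and 148 ± 56.0 CPM in B>A cells. Ndufa4l2, related to a subunit of the respiratory chain, averaged 18.7 ± 8.46 CPM and 252 ± 63.9 CPM. Higd1b, Notch3 and Vtn also stood in the pericyte marker list. Of its 7 genes, 4 were lower in members in all 6 samples and 2 were higher. The list summed to 523 to 1478 CPM in members on high-fat diet and 559 to 4032 CPM in members of controls. In B>A cells it summed to 1208 to 2369 CPM, with a median of 1856 CPM. The part of these markers in the differences was not tested. S1pr3, a sphingosine-1-phosphate receptor, differed by -2.71, Tcf15, a basic helix-loop-helix factor, by -2.47, and Sorbs2, an adaptor of the cytoskeleton, by -2.35. Colec11, a secreted lectin, differed by -2.23 and Tesc, a calcium-binding protein, by -2.20.

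**Figure D3:**
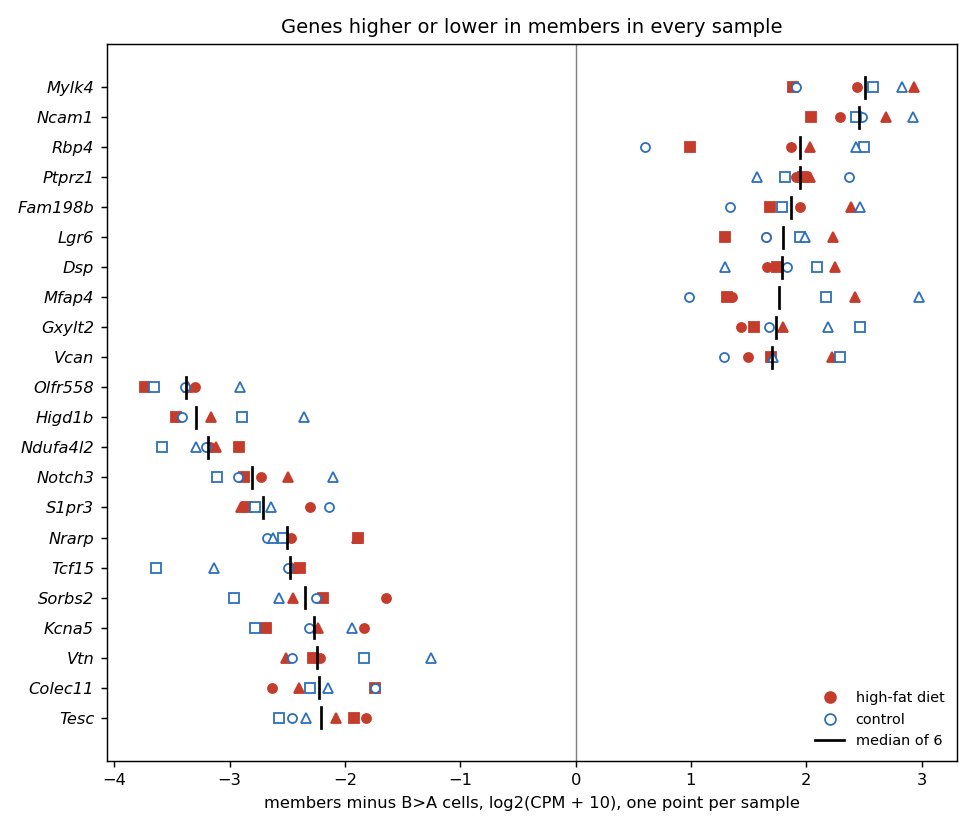
Members minus B>A cells, as log2(CPM + 10), for 10 of the 12 genes with the largest positive median and the 12 with the largest negative one among genes of 1 sign in all 6 samples and at least 50 CPM in the higher set, with 1 point per sample. Medians ran from 2.51 for Mylk4 to 1.70 for Vcan, and from -3.37 for Olfr558 to -2.20 for Tesc.

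Among ligands and receptors of cell adhesion, 13 of 22 measured genes were higher in members in all 6 samples and 4 were lower, with a list median of 0.33 against 0.01 over all genes. Besides the rule's Npnt and Itga8, they included the receptor chains Itga9 (1.29), Itgb3 (1.10), Itgb5 (0.87), Itga5 (0.82) and Itgb1 (0.52), the partner of the alpha 8 chain. Itgb1 averaged 918 ± 312 CPM in members and 642 ± 154 CPM in B>A cells. The matrix ligands Fn1 (1.03), fibronectin, and Postn (0.94), periostin, were higher as well. Vtn, vitronectin, went the other way, with a mean of 12.6 ± 5.51 CPM in members and 93.2 ± 45.8 CPM in B>A cells. The receptor chains Itga1 (-0.47) and Itga7 (-0.36) and the adaptor Lims1 (-0.84) were also lower.

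Of 20 measured genes of the elastic fibre list, 10 were higher in members in all 6 samples and 1 was lower, with a list median of 0.48. Eln, which encodes elastin, averaged 1897 ± 514 CPM in members and 906 ± 298 CPM in B>A cells (SD, n = 6 each), a median difference of 1.04. Fbln5, a fibulin needed for fibre assembly, differed by 1.42, Mfap4, a microfibril-associated protein, by 1.76, and Lox, a cross-linking oxidase, by 0.96. Latent TGF-beta binding proteins followed, with Ltbp3 at 1.07, Ltbp1 at 1.00 and Ltbp2 at 0.85. The 10 include Fblim1 (1.51), a filamin-binding adaptor that is not a fibre component. Mfap4 was uneven between samples, with 245 and 299 CPM in members of control 3 and high-fat diet 3 and 499 to 983 CPM in the others.

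The collagen and matrix list had 11 of 28 genes higher and 3 lower. Bgn, biglycan, averaged 2217 ± 404 CPM in members and 1266 ± 362 CPM in B>A cells, and Mgp, the calcification inhibitor matrix Gla protein, 6827 ± 1284 CPM and 3983 ± 1262 CPM. Col4a6 (1.08) and Col4a5 (0.75), basement membrane chains, and Col15a1 (1.08) were higher too. Sparcl1 (-1.70), Thbs1 (-1.89), thrombospondin 1, and Aspn (-1.46), asporin, were lower.

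In the list of Wnt antagonists and readouts, 5 of 18 genes were higher and none was lower in all 6 samples. They were Sost, a rule gene, with Wnt16 (1.5), a ligand, Wif1 (1.48), Dkk3 (1.17) and Sfrp2 (1.00), which encode secreted proteins of Wnt inhibitor families. Dkk3 averaged 170 ± 24.9 CPM in members and 70.7 ± 19.9 CPM in B>A cells. Wif1 was uneven, with an SD of 58.8 CPM around 57.4 CPM in members.

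The Notch list ran the other way: 7 of 11 genes were lower in members in all 6 samples and none was higher, with a list median of -0.84. Notch3, the receptor of arterial smooth muscle, stood at 34.0, 22.1 and 68.7 CPM in members on high-fat diet and 33.0, 47.1 and 67.8 CPM in members of controls, against a mean of 344 ± 95.4 CPM in B>A cells. The targets Nrarp (-2.5) and Hes1 (-1.64), the receptor Notch1 (-0.84), the ligand Jag1 (-1.10) and the target Hey2 (-0.40) were lower as well. Nrip2 (-3.79), also in the list, was summed in B and is lower by the rule.

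Among potassium channels and other genes of membrane excitability, 8 of 26 were lower and 5 were higher. Kcna5, a voltage-gated potassium channel, averaged 6.60 ± 4.65 CPM in members and 70.4 ± 15.1 CPM in B>A cells. Kcnk3, a background potassium channel (-1.54), Cacna1h, a T-type calcium channel (-1.45), and Cacna1c, the L-type calcium channel (-0.81), were also lower, and Pln, the rule's phospholamban, differed by -3.43. Both chains of the large-conductance calcium-activated potassium channel, Kcnmb1 (0.69) and Kcnma1 (0.53), were higher. Of 28 vasoactive receptors and G protein regulators, 10 were lower and 3 higher. The lower ones include Rgs4, which was summed in B and is lower by the rule. Ednra, an endothelin receptor, averaged 21.9 ± 5.08 CPM in members and 82.9 ± 12.3 CPM in B>A cells, and the purinergic receptor P2rx1 (-0.94) and the prostacyclin receptor Ptgir (-0.79) were also lower. Npr1, the receptor of atrial natriuretic peptide, averaged 77.4 ± 20.5 CPM in members and 22.5 ± 4.06 CPM in B>A cells. Ramp1 (0.51), part of the receptor for calcitonin gene-related peptide, and Htr1b (0.71), a serotonin receptor, were the other higher ones.

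The contractile apparatus list had 4 of 28 genes higher and 5 lower (12.2% and 10.2% over all genes), with a list median of 0.04. Both sets had passed the same gate on Myh11, Cnn1 and Lmod1, so closeness in contractile genes was partly set by the rule. Actn1 (0.77), alpha actinin, Smtn (0.47), smoothelin, Myocd (0.45), the myocardin coactivator, and Pdlim7 (0.37) were higher. Mustn1 (-1.26), Des (-1.24), the intermediate filament desmin, Mylk (-0.57), myosin light chain kinase, Tpm1 (-0.41), tropomyosin, and Csrp1 (-0.19) were lower. Lipid genes differed in both directions: Vldlr (1.11), a lipoprotein receptor, was higher, while Fabp4 (-1.33), Lpl (-1.06) and Cd36 (-0.83), genes of fatty acid uptake, were lower. The chemokines Ccl11 (-1.89) and Cxcl12 (-1.18) were lower in members. Of 21 Hox genes, which mark position along the body axis, 4 (Hoxb6, Hoxa3, Hoxb3 and Hoxb5) were higher by 0.23 to 0.38 and Hoxc4 was lower. Klf2 averaged 144 ± 41.5 CPM in members and 159 ± 54.7 CPM in B>A cells, and Vcam1 19.9 ± 9.17 CPM and 30.2 ± 16.6 CPM, with neither of 1 sign in all 6 samples.

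Members also varied among themselves. They were split by whether a cell had a Sost UMI, again with no test since Sost is a gene of the rule and cells with few UMIs miss it more often. Of 10548 genes, 691 (6.55%) were higher in Sost-detected members in 6 of 6 samples and 603 (5.72%) were lower. With a median of at least 1 these were 3 (0.0284%) and 29 (0.275%). Mylk4 averaged 143 ± 16.4 CPM in Sost-detected and 64.9 ± 15.5 CPM in Sost-undetected members (SD, n = 6 samples each), and Limch1, an actin-associated protein, 230 ± 39.5 CPM and 110 ± 37.8 CPM. Vcan (0.82) and Cd200 (0.81), a surface glycoprotein, were also higher. Mylk4 and Vcan were thus among the leading genes of both descriptions. Lower were Thbs1, with 20.4 ± 4.80 CPM in Sost-detected and 88.9 ± 25.2 CPM in Sost-undetected members, and Fst, the activin-binding protein follistatin, with 20.9 ± 11.2 CPM and 97.9 ± 45.4 CPM. Cpxm2 (-1.56), Gpm6b (-1.45), Tmem119 (-1.45) and Tshz2 (-1.43) followed. Thbs1 and Fst were also lower in members than in B>A cells, Fst with a mean of 31.7 ± 9.74 CPM in members and 162 ± 129 CPM in B>A cells.

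The series was made to compare diets, and the rule did not read the diet label. Sums of members were tested with edgeR's quasi-likelihood test over 12698 genes. No gene passed an adjusted p of 0.05 (0%), and 1069 (8.42%) fell below an unadjusted 0.05. DESeq2, with a looser filter on low counts, called 83 of 15514 genes, 48 higher and 35 lower on high-fat diet. The diets did not overlap in 908 genes higher on high-fat diet (7.15%) and 995 lower (7.84%). Without control 3 edgeR called 2 genes, Alyref and Cebpb. The values below are therefore differences that did not pass that test, in CPM scaled by TMM factors between 0.932 and 1.08.

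Cebpb, a transcription factor of inflammation and adipogenesis, stood at 147, 129 and 92.2 CPM in members on high-fat diet, against 11.5, 13.8 and 20.8 CPM in members of controls. Every high-fat diet sample lay above every control (log2 difference 3.01 ± 0.28 SE, edgeR adjusted p = 0.0737). Hsph1, a chaperone of the heat shock family, stood at 108, 125 and 158 CPM on high-fat diet, against 37.7, 27.5 and 36.4 CPM in controls (1.94 ± 0.20 SE, edgeR adjusted p = 0.0737). Id4, an inhibitor of helix-loop-helix factors, differed little between samples of a diet but more between wells, at 68.6, 71.0 and 67.4 CPM on high-fat diet and 30.4, 33.6 and 30.1 CPM in controls (1.14 ± 0.12 SE, edgeR adjusted p = 0.0737). Alyref, an mRNA export factor, averaged 88.4 ± 5.61 CPM on high-fat diet and 24.6 ± 8.69 CPM in controls (SD, n = 3 each; edgeR adjusted p = 0.151). Hspa8, a constitutive chaperone, averaged 1435 ± 147 CPM on high-fat diet and 512 ± 127 CPM in controls (edgeR adjusted p = 0.151). Camk2n1, an inhibitor of calmodulin-dependent kinase II (1.00), Btg3, an antiproliferative protein (1.18), and Manf, a secreted protein of the endoplasmic reticulum (1.26), were also without overlap.

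In the other direction, Cirbp and Rbm3, RNA-binding proteins induced by cold, were without overlap. Cirbp stood at 65.3, 54.0 and 68.7 CPM on high-fat diet, against 132, 151 and 191 CPM in controls (-1.33 ± 0.18 SE, edgeR adjusted p = 0.151). Rbm3 averaged 132 ± 10.1 CPM on high-fat diet and 292 ± 49.0 CPM in controls (SD, n = 3 each; edgeR adjusted p = 0.151). H1f0, a linker histone, averaged 65.0 ± 3.54 CPM and 127 ± 11.6 CPM. Hlf, a transcription factor of the circadian output (-1.20), Haghl (-1.10), Tcea3, an elongation factor (-0.69), Cnrip1 (-0.70) and Plvap, a protein of endothelial diaphragms (-1.05), completed the 8. The summed endothelial markers in members stood at 41.9, 74.9 and 66.9 CPM on high-fat diet and 81.3, 15.3 and 37.6 CPM in controls, and overlapped.

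**Figure D4:**
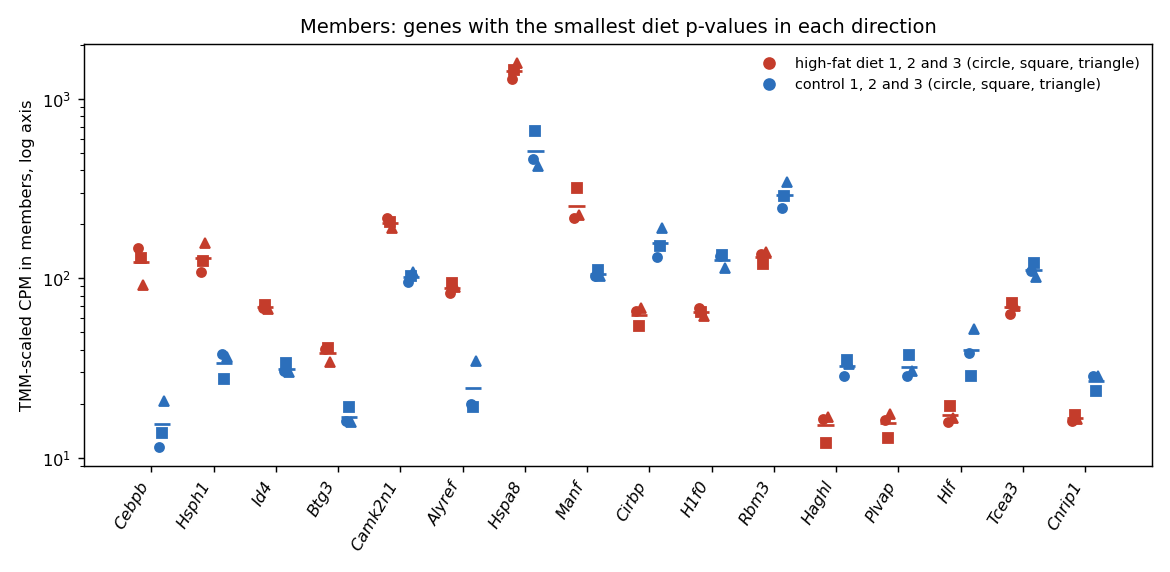
TMM-scaled CPM in the sum of members of each sample, on a log axis, for the 8 genes with the smallest diet p-values in each direction among genes that averaged 20 CPM or more and lacked overlap, high-fat diet left and control right of each pair, with a bar at the mean. Cebpb has the widest gap, 92.2 to 147 CPM on high-fat diet against 11.5 to 20.8 CPM in controls, and none of the 16 passed edgeR's adjusted threshold.

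A single well stood apart from its label in these genes. Members of control 3 were 57 cells (531410 UMIs) from well 1 and 914 cells from well 2. Cebpb stood at 80.9 CPM in well 1 of control 3, against 12.3 to 15.5 CPM in the other 5 control wells and 62.5 to 169 CPM in the 6 high-fat diet wells. In the same well Cirbp stood at 45.2 CPM and Rbm3 at 75.3 CPM, below all high-fat diet wells, while the other control wells held 114 to 189 CPM of Cirbp and 257 to 343 CPM of Rbm3. Id4 stood at 52.7 CPM there, against 25.9 to 34.9 CPM in the other control wells and 49.2 to 103 CPM in the high-fat diet wells, which differed within high-fat diet 1 (103 and 54.8 CPM) and 3 (49.2 and 99.8 CPM). Hsph1, at 48.9 CPM, and Alyref, at 24.5 CPM, stayed within the range of the control wells. Without this well, an alternative chosen after the data had been seen, edgeR called 1 gene in members, Cebpb (3.19, edgeR adjusted p = 0.00938). Hsph1 (1.96), Id4 (1.17), Cirbp (-1.37) and Rbm3 (-1.19) kept their direction without it and did not pass. The share differences of 1.71 and 1.46 points were 1.25 and 0.987 without it, and 14 genes were called in B>A cells and 1 in gated cells. Over all alternatives the adjusted p of Cebpb ran from 4.77e-22 with DESeq2 to 0.769 in well 1 alone.

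**Figure D5:**
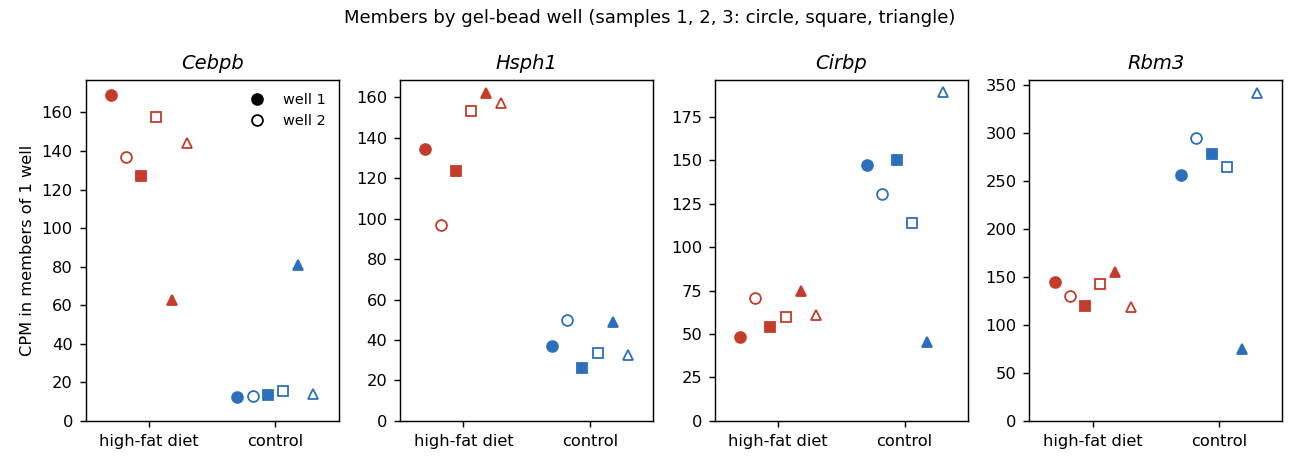
CPM of 4 genes in the members of each gel-bead well, high-fat diet left and control right, with filled points for well 1 and open points for well 2. Well 1 of control 3 (filled blue triangle) holds 80.9 CPM of Cebpb, 45.2 CPM of Cirbp and 75.3 CPM of Rbm3, apart from the other 5 control wells.

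Among the gene lists, those of heat shock and the unfolded protein response had the most genes higher on high-fat diet without overlap, and no gene passed. Over all 12698 genes, 6016 had a positive and 6682 a negative difference. In the heat shock list 10 of 20 genes were higher without overlap and none was lower (background 7.15% and 7.84%), with a list median of 0.58 against -0.02 over all genes. Hspb1, a small heat shock protein, stood at 2017, 1582 and 2307 CPM in members on high-fat diet, against 518, 807 and 836 CPM in controls (edgeR adjusted p = 0.206). Hsp90aa1 stood at 631, 792 and 798 CPM on high-fat diet, against 290, 366 and 232 CPM in controls (edgeR adjusted p = 0.172). In the unfolded protein response list 15 of 22 were higher without overlap and none was lower, with a median of 0.67. Hspa5, the main chaperone of the endoplasmic reticulum, stood at 396, 775 and 479 CPM on high-fat diet, against 204, 235 and 120 CPM in controls (edgeR adjusted p = 0.419). Xbp1, a transcription factor of that response, stood at 127, 142 and 112 CPM on high-fat diet, against 79.4, 72.8 and 69.0 CPM in controls (edgeR adjusted p = 0.276). In high-fat diet 2, Hspa5 was the highest of the 6 samples. Mitochondrially encoded transcripts, whose share is a common sign of cell quality, moved the same way in members, with a median of 0.17. Of these, 12 of 13 had a positive difference and 4 were higher without overlap (background 7.15%). Of them mt-Co3 stood at 14118, 15095 and 17000 CPM on high-fat diet, against 11203, 12767 and 11794 CPM in controls (edgeR adjusted p = 0.562). In B>A cells the list medians were 0.72 for heat shock, 0.96 for the unfolded protein response and -0.098 for mitochondrially encoded transcripts. The part of mitochondrially encoded transcripts in the stress gene values was not tested.

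In the collagen and matrix list 22 of 29 genes had a negative difference, against 6682 of 12698 over all genes, and 4 of them lacked overlap (background 7.84%), with a median of -0.33. Col3a1 stood at 770, 803 and 709 CPM in members on high-fat diet, against 1195, 1133 and 1040 CPM in controls (-0.56 ± 0.13 SE, edgeR adjusted p = 0.419). Sparc, a collagen-binding protein, stood at 1892, 2013 and 2076 CPM on high-fat diet, against 2718, 4437 and 2423 CPM in controls (edgeR adjusted p = 0.525). In the elastic fibre list 16 of 20 had a negative difference, and the 2 that lacked overlap are a share near the background of 7.84%. Eln stood at 1507, 1458 and 1735 CPM on high-fat diet, against 1931, 2925 and 1844 CPM in controls (edgeR adjusted p = 0.576), so control 2 was far above the rest. Summed fibroblast markers, with Pdgfra at 0 by the gate, ran from 1212 to 2513 CPM in members on high-fat diet and from 809 to 3354 CPM in controls, and their part in these values was not tested.

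In the adhesion list 10 of 23 genes had a positive and 13 a negative difference, with a median of -0.15. Higher without overlap were 3 of the 23 (background 7.15%), namely Itga1, Itgb5 and Itgb1. Itga1, the alpha 1 chain of a collagen receptor, stood at 40.6, 57.3 and 54.8 CPM in members on high-fat diet, against 36.2, 19.9 and 21.2 CPM in controls (edgeR adjusted p = 0.478). Itgb1 stood at 961, 1446 and 936 CPM on high-fat diet, against 827, 656 and 648 CPM in controls (edgeR adjusted p = 0.507). Neither Wnt antagonists nor Hox genes had a member without overlap. Among posterior Hox genes Hoxa10 stood at 11.3, 0.110 and 4.18 CPM on high-fat diet and at 0.121, 0 and 60.8 CPM in controls. Hoxc10 stood at 7.75, 0 and 2.22 CPM on high-fat diet and at 0, 0 and 55.8 CPM in controls, and Hoxc9 at 7.86, 0 and 4.31 CPM and at 0, 0 and 30.9 CPM, so control 3 was far above the rest. Of the 28 contractile genes only Myocd was higher without overlap (background 7.15%) and only Mkl1 was lower (background 7.84%). Myocd stood at 63.8, 54.1 and 65.7 CPM on high-fat diet and 41.0, 34.2 and 47.1 CPM in controls (edgeR adjusted p = 0.493). Among 25 vasoactive genes 2 were higher without overlap and 1 was lower (background 7.15% and 7.84%). The higher ones were Gucy1b3 (0.45), a subunit of the nitric oxide receptor, and Rgs4 (0.21). Rgs4 is a gene of B, so the rule limited its level in members and its value there is not read as a result. The lower one was Rgs2, which limits Gq signalling, at 25.1, 18.4 and 31.4 CPM on high-fat diet, against 41.3, 108 and 55.8 CPM in controls (edgeR adjusted p = 0.493). Of 27 lipid genes 17 had a positive and 10 a negative difference, and 3 were higher without overlap (background 7.15%). An unadjusted edgeR p under 0.05 was found in 2 of them (7.41%), against 8.42% over all genes. Plin2, a lipid droplet coat protein, stood at 40.2, 42.0 and 31.4 CPM on high-fat diet, against 30.3, 24.4 and 17.4 CPM in controls (edgeR adjusted p = 0.514). Fabp4 stood at 417, 478 and 865 CPM on high-fat diet, against 331, 167 and 350 CPM in controls (edgeR adjusted p = 0.551). In the immediate early list 15 of 23 were lower, against 6682 of 12698 over all genes. Ier2 alone lacked overlap, a share below the background of 7.84%. Fos stood at 149, 55.9 and 344 CPM on high-fat diet, against 186, 564 and 695 CPM in controls.

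All 10 MHC class II genes were lower on high-fat diet (6682 of 12698 over all genes), 3 without overlap (background 7.84%), with a median of -0.93. H2-DMb2 stood at 4.61, 2.76 and 2.83 CPM in members on high-fat diet, against 4.95, 11.6 and 42.6 CPM in controls (edgeR adjusted p = 0.527). The summed markers of B cells, which express these genes, stood at 23.8, 12.8 and 12.4 CPM in members on high-fat diet, against 13.6, 80.3 and 186 CPM in controls, with none of the 4 measured markers at 0. Summed macrophage markers, of a cell type that also expresses them, stood at 970, 923 and 636 CPM on high-fat diet and at 1492, 281 and 518 CPM in controls. Control 1, low in B cell and highest in macrophage markers, held 789 CPM of Cd74 and 401 CPM of H2-Ab1. The part of either was not tested. The summed skeletal muscle markers reached 3426 CPM in members of control 1 and 20.8 to 337 CPM in the other 5, and the chondrocyte markers 1559 CPM in control 1 and 22.6 to 342 CPM elsewhere. All 5 erythroid markers had a positive difference on high-fat diet, with a median of 1.56, and none passed the adjusted threshold. Each had an unadjusted edgeR p under 0.05 (background 8.42%), and 1 was higher without overlap (background 7.15%). Their sum stood at 2395, 10273 and 3747 CPM on high-fat diet and at 1766, 1044 and 2562 CPM in controls. Members shared 22 of 7366 barcodes between wells.

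The genes of A and B could be tested for diet only in the sum of all gated cells, which the A and B cut did not shape. None of 13077 genes passed there with edgeR (0%), and 1112 (8.5%) fell below an unadjusted 0.05. DESeq2, with its looser filter, called 87 of 15922 genes. The diets did not overlap in 950 genes higher on high-fat diet (7.26%) and 1021 lower (7.81%). Sost stood at 858, 714 and 786 CPM in gated cells on high-fat diet, against 460, 958 and 443 CPM in controls (0.34 ± 0.31 SE, edgeR adjusted p = 0.766), and the diets overlapped. Npnt averaged 466 ± 111 CPM on high-fat diet and 567 ± 196 CPM in controls (SD, n = 3 each; edgeR adjusted p = 0.797). Itga8 averaged 955 ± 127 CPM on high-fat diet and 961 ± 215 CPM in controls (edgeR adjusted p = 0.991). Susd5 averaged 147 ± 47.7 CPM and 190 ± 96.8 CPM (edgeR adjusted p = 0.828). Of the genes of B, Rgs4 alone did not overlap, at 106, 108 and 113 CPM on high-fat diet and 92.3, 91.7 and 103 CPM in controls (edgeR adjusted p = 0.691). Sncg differed by 0.23, Nrip2 by -0.74 and Pln by -0.07. Klf2, the factor in the series title, averaged 163 ± 23.6 CPM in gated cells on high-fat diet and 133 ± 56.8 CPM in controls (edgeR adjusted p = 0.804). Vcam1 averaged 21.9 ± 10.5 CPM and 22 ± 7.08 CPM (edgeR adjusted p = 0.997).

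In B>A cells, which numbered 142, 138 and 228 on high-fat diet and 117, 111 and 210 in controls, edgeR called 9 of 7916 genes (0.114%), 8 higher (0.101%) and 1 lower (0.0126%), where 7.31% fell below an unadjusted 0.05. The diets did not overlap in 572 genes higher on high-fat diet (7.23%) and 477 lower (6.03%). Alyref, P4ha1, Manf, Hsp90b1, Cebpb, Sdf2l1, Camk2n1 and Hsp90aa1 rose and Atcayos fell on high-fat diet. Alyref stood at 93.5, 98.0 and 98.4 CPM in B>A cells on high-fat diet, against 15.7, 19.98 and 24.0 CPM in controls (2.25 ± 0.22 SE, edgeR adjusted p = 0.00434). Both sets come from the same libraries, controls included. In members the log2 differences of these genes, none of which passed, were 1.85 for Alyref, 1.45 for P4ha1, 1.26 for Manf, 0.98 for Hsp90b1, 3.01 for Cebpb, 1.5 for Sdf2l1, 1.00 for Camk2n1, 1.32 for Hsp90aa1 and -0.85 for Atcayos. The count in B>A cells was 0 without control 2 or high-fat diet 1, 1 without high-fat diet 2, 2 without control 3 or high-fat diet 3, and 21 without control 1.

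Whether the diet difference itself differed between members and B>A cells was tested in 1 fit over the 12 sums, with sample as a block. Of 12287 genes 1 passed (0.00814%), and 499 had an unadjusted p under 0.05. It was Hist1h2ap, a histone gene with near-identical copies, so its counts are uncertain. Members held 16, 21.0 and 33.6 CPM of Hist1h2ap on high-fat diet and 13.8, 0 and 4.35 CPM in controls, while B>A cells held 7.38, 6.49 and 5.39 CPM (6, 6 and 7 UMIs) on high-fat diet and 57.7, 0 and 5.24 CPM in controls (42, 0 and 7 UMIs). The difference of the diet effects was 3.51 ± 0.52 SE (edgeR adjusted p = 0.0493), and without control 1 it was 2.21 (edgeR adjusted p = 0.795). Junb, an immediate early gene, missed the threshold with -1.12 ± 0.18 SE (edgeR adjusted p = 0.0535). Members held 112, 66.2 and 119 CPM of Junb on high-fat diet and 125, 372 and 324 CPM in controls, whereas B>A cells held 214, 182 and 333 CPM on high-fat diet and 172, 332 and 390 CPM in controls. For Alyref, Manf, Cebpb and Camk2n1 the tested differences between the sets were -0.48, -0.34, -0.12 and -0.20 (edgeR adjusted p = 1 for each).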

How the data were processed

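The authors deposited UMI counts per gene and cell, 27998 genes in each of 6 samples. The submitters' processing notes name Cell Ranger 3.0 and mm10. How cells were called is not given in the sources used here. Total counts ran from 41388034 to 83886418 UMIs per sample, with medians of 3856 to 5955 UMIs per cell.

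The members, the gene lists and the rule for named genes were chosen with earlier results of these data known. Genes ranked for diet in members average 20 CPM or more and lack overlap. Genes ranked between sets have 1 sign in 6 samples and at least 50 CPM in the higher set. Genes named otherwise, such as those of the lists, the rule and the interaction, Klf2 and Vcam1, need not meet these conditions. Some genes that met these rules are not reported here. Raw counts were summed per sample over members, B>A cells or all gated cells. They were compared by edgeR 4.0.16, with its robust quasi-likelihood test, TMM factors and default filter on low counts, with Benjamini-Hochberg adjustment over all tested genes at 0.05. The 3 sums differ in the cells they hold, and the interaction fit had sample as a block. Shares were compared by exact permutation. Differences between sets used log2(CPM + 10).

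Counts were simulated from the samples' own means, with 100 genes changed 2-fold and 100 changed 4-fold, all drawn from genes averaging 20 CPM or more. Of these edgeR recovered 46% and 96% in members, with 12698 genes tested, and 31% and 94% in B>A cells, with 7916, with 15 and 14 false calls. Lower genes were not tried, and with fewer changed genes the adjusted threshold would be harder to pass. Scrublet in scanpy 1.11.5 (expected rate 0.06) scored each well, and 151 members scored above 0.25; they were kept, and left out as an alternative. Alternatives also covered DESeq2 1.42.0, other size factors, unfiltered counts, each sample left out, a block for the replicate number, single wells, limits on genes, mitochondrial UMIs, gate and cut, and thinning. In thinned cells the rule was read from the thinned counts, so cells that lost their UMIs of Pecam1, Ptprc or Pdgfra by thinning could enter. Promoter sequences are those of RefSeq on GRCm38.p6, which hold 7 of the 8 genes of A and B. Python was 3.11.15 and R 4.3.3.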

Additional observations from a re-analysis of the deposited data

Results flagged for a closer look

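Hist1h2ap was picked out because its diet difference itself differed between members and B>A cells: the difference of the log2 effects was 3.51 (edgeR adjusted p = 0.0493). In members it was higher on high-fat diet in 3 of 3 samples than in every control. In B>A cells control 1 held 42 UMIs, and the other 5 samples held 0 to 7. The value ran to -2.20 in cells thinned to 2000 UMIs (edgeR adjusted p = 1), and over the alternatives its adjusted p ran from 4.35e-11 to 1.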

How the results depend on the processing

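The member share of gated cells differed between diets by 1.71 points and that of members and B>A cells by 1.46; these became -0.939 and -0.749 under 10% mitochondrial UMIs, -0.524 and -2.5 in well 2 alone, and ran from -0.196 to 4.01 and from -1.31 to 3.27 with 1 sample left out. Of edgeR's counts of genes called by diet, those in members (0), B>A cells (9), gated cells (0) and the interaction (1) became 83, 21, 87 and 3 with DESeq2, which tested 15514, 12405, 15922 and 15743 genes. With no filter on low counts they became 11, 41, 4 and 11, over 19337, 16588, 19667 and 19535 genes. In well 2 alone they were 5, 3, 2 and 3, without well 1 of control 3 they were 1, 14, 1 and 1, and with 1 sample left out they ran over 0 to 2, 0 to 21, 0 to 2 and 0 to 3. Thinning to 2000 UMIs gave 5 in members and 0 in the interaction. It also changed which cells were members, with 1472 instead of 1248 in high-fat diet 2 and 1379 instead of 1177 in control 2. In B>A cells the count was 18 with a gate of 10 UMIs, 5 under 10% mitochondrial UMIs and 0 in well 1 alone. In the interaction it was 0 with the gate of 10, with median-of-ratios size factors or with A of at least 4 and B of at least 2, and 2 with at least 1000 genes or under 10% mitochondrial UMIs. The cause of these shifts was not tested.

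Same-numbered high-fat diet and control samples correlated by -0.171, -0.0749 and 0.376 in their deviations from the diet means, and high-fat diet 2 correlated best with control 1 (0.555). Deviations from a mean of 3 samples are tied to each other, so these values cannot settle whether the numbers pair the samples. With the replicate number as a block, 0 genes passed in members, 1 in B>A cells (Alyref) and 0 in gated cells, and Itga8 in gated cells turned to 0.0063. The counts of genes at least 1 log2 unit higher and lower in members than in B>A cells (119 and 160) were 275 and 345 with a pseudocount of 1 CPM and 34 and 43 with 50 CPM. For Sost-detected members (3 and 29) they were 22 and 93 with 1 CPM and 1 and 4 with 50 CPM, with 9 higher in well 1 alone and 1 higher with the gate of 10. The other alternatives kept both splits within 1.5 times.

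Single genes that changed sign, none of them called, were in well 2 alone Itga1 (-0.029), Loxl1 (0.17) and Cd36 (-0.061) in members and Npnt (0.48), Itga8 (0.20), Susd5 (0.017), Nrip2 (0.41) and Pln (0.42) in gated cells. In well 1 alone they were Ctgf in members (-0.10) and Sncg (-0.30), Rgs4 (-0.20) and Vcam1 (0.23) in gated cells. Pln was 0.049 with the gate of 10 and 0.10 under 10% mitochondrial UMIs, where Vcam1 was 0.080. With 1 sample left out, values in gated cells ran from -0.13 to 0.18 for Itga8, -0.71 to 0.042 for Susd5, -0.052 to 0.77 for Sncg, -1.35 to 0.063 for Nrip2, -0.15 to 0.021 for Pln and -0.43 to 0.28 for Vcam1. Hist1h2ap turned to -2.20 with thinning to 2000 UMIs. In well 2 alone control 1 was left out of the B>A sums, since it held 19 such cells, and in well 1 alone control 3 was left out of the Sost split.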
